A study of Mus musculus with 24 samples.

Results

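Irf4, Irf8, Spi1 and Spib encode IRF4, IRF8, PU.1 and Spi-B, and their transcripts were followed in common lymphoid progenitors (CLPs) and B cell progenitors lacking PLCγ1, PLCγ2 or both. The 4 genes were chosen by symbol among the 24421 genes of the count tables, and each was found once. RNA-seq was performed on 24 libraries, made of 2 populations and 4 genotypes with 3 mice in each of the 8 groups. CLPs were sorted as Lin-IL-7R+ and B cell progenitors as B220+IgM-IL-7R+, both of CD45.2+ donor origin, from the bone marrow of lethally irradiated CD45.1+ recipients 6 to 8 weeks after transplantation.

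The genotypes were Plcg1+/+Plcg2+/+ (wild type), Plcg1-/-Plcg2+/+ (PLCγ1-deficient), Plcg1+/+Plcg2-/- (PLCγ2-deficient) and Plcg1-/-Plcg2-/- (double-deficient). Donors of all 4 genotypes, on a mixed 129xC57BL/6 background, carried the MxCre and Rosa-YFP transgenes. They received 3 injections of poly(I-C) at 6 to 12 weeks of age, and their marrow was taken 3 weeks after the last injection. In the Plcg1-/- groups Plcg1 was a floxed allele removed by Cre from the type I interferon-inducible Mx promoter, which is not restricted to the B lineage, whereas Plcg2 was a germline null allele. The sorts are given by CD45.2 and not by YFP, which marks cells that recombined. The number of donors per genotype was not given in the sources used here, so n counts recipients and p-values measure the spread between them.

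IRF4 and IRF8 are closely related transcription factors that bind DNA weakly alone and are recruited by PU.1 or Spi-B, 2 closely related Ets factors, to composite Ets-IRF elements in B cell genes. In the B lineage IRF4 and IRF8 act together at the pre-B cell stage, where they limit the surrogate light chain genes and favour Ikaros, Aiolos and light chain rearrangement. PU.1 is needed for lymphoid and myeloid progenitors to form, and Spi-B shares many of its B cell targets and also serves plasmacytoid dendritic cells.

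On mm10 the genes lie on 4 different chromosomes. Irf4 spans chr13:30749226-30766976 and Irf8 chr8:120736358-120756694, both on the plus strand. Spi1 spans chr2:91082390-91115756 on the plus strand and Spib chr7:44525993-44532071 on the minus strand. Counts were given per gene and not per exon, and the exons counted were not stated in the sources used here. In the mm10 annotation no exon of the 4 genes overlapped an exon of another gene in the tables. The 250 bases before the RefSeq start site (GRCm38.p6) are shown for Irf4 and Spib, since the levels of these 2 genes moved together across libraries. The Irf4 window is chr13:30748983-30749232 on the plus strand and the Spib window chr7:44532072-44532321 on the minus strand. Capitals mark the single match to GAGGAA, a core that PU.1 and Spi-B can bind, which in Irf4 lies on the opposite strand and begins 19 bases before the start site.
Irf4: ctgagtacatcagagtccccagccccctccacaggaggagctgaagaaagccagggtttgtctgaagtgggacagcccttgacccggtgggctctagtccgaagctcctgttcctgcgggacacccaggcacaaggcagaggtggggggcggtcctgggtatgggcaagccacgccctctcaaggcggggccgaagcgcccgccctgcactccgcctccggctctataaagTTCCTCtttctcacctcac
Spib: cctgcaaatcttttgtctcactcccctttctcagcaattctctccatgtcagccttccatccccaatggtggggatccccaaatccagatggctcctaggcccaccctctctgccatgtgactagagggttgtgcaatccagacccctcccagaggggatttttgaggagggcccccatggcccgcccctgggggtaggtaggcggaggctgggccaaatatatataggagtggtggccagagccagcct
On either strand GAGGAA was found in 23.3% of 32817 RefSeq windows of this length, and it was absent from the Spib and Irf8 windows. The core of the Ets-IRF composite element was found in 2.3% of the windows and the core of the interferon-stimulated response element in 2.97%, and neither was found in a window of Irf4, Irf8 or Spib. These matches describe the letters alone.

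CLP libraries held 4232345 to 33219995 reads on genes and B cell progenitor libraries 1479582 to 25057223, and reads on no gene made up 17.9% to 45.2% and 59.9% to 87.3% of the counted total. Levels are given as normalized CPM, the usual counts per megaread on genes after TMM scaling. The test was edgeR's quasi-likelihood test, with p adjusted over all genes by Benjamini-Hochberg, and a call needed both an adjusted p no higher than 0.05 and a log2 change of 0.5 or more in size. Plcg2 lay between 77.0 and 148 CPM in the 12 Plcg2-/- libraries and between 195 and 269 CPM in the 12 Plcg2+/+ libraries. Plcg1 lay between 59.8 and 178 CPM in Plcg1-/- and between 75.8 and 113 CPM in Plcg1+/+ libraries, and its whole-gene count does not resolve the floxed part. All 12 Plcg1-/- libraries had 1332 or more CPM of Xist and at most 51.6 CPM over 4 Y-linked genes, against at most 797 and at least 252 in the others. Each comparison of Plcg1-/- with Plcg1+/+ mice therefore cannot be told apart from a difference in sex-linked transcripts. That is not so for double-deficient against PLCγ1-deficient mice, nor for PLCγ2-deficient against wild-type mice.

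The labels of the populations were checked against markers before the genes were compared. Flt3, which marks CLPs, reached 180 to 733 CPM in 4 of the 12 CLP libraries (wild-type mouse 1 and mouse 2 of each deficient genotype). In the other 8 CLP libraries it lay between 24.7 and 118 CPM, against 28.3 to 118 CPM in the B cell progenitor libraries. The B lineage gene Pax5 was as high in those 8 libraries (77.1 to 242 CPM) as in B cell progenitors (56.0 to 212 CPM). The same 4 libraries held the innate lymphoid markers at a summed 416 to 770 CPM, against 59.0 to 281 CPM in the other 8. In both populations mouse 1 of each deficient genotype stood apart by monocyte and macrophage markers, at 1366 to 1745 summed CPM against at most 1002 in the 18 other libraries, and by neutrophil markers, at 6733 to 8243 against at most 6040. Results on the 4 genes that change without these libraries are given with and without them.

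Of the 4 genes Irf4 had the largest changes with genotype. In B cell progenitors it stood at 515, 651 and 773 normalized CPM in the 3 wild-type mice and at 72.4, 114 and 148 in the 3 double-deficient mice. Each double-deficient value lay below every wild-type value, in a comparison where 19.7% of all genes had groups that did not overlap. The 5.77-fold lower level (log2 fold change -2.53 ± 0.47 SE, 95% interval -3.551 to -1.505) had an adjusted p of 0.0271 in edgeR and 1.51e-06 in DESeq2. By edgeR Irf4 was the only one of the 4 genes called in that comparison, in which 134 of 15001 genes, or 0.893%, were called. DESeq2 called 3.67% of genes, and Spib besides Irf4. In bulk RNA fewer cells with much Irf4 and less Irf4 RNA per cell cannot be told apart. With 1 wild-type or double-deficient library left out, its log2 fold change stayed between -2.78 and -2.30 but its adjusted p rose to between 0.0501 and 0.112 for each of those 6 libraries.

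**Figure D1:**
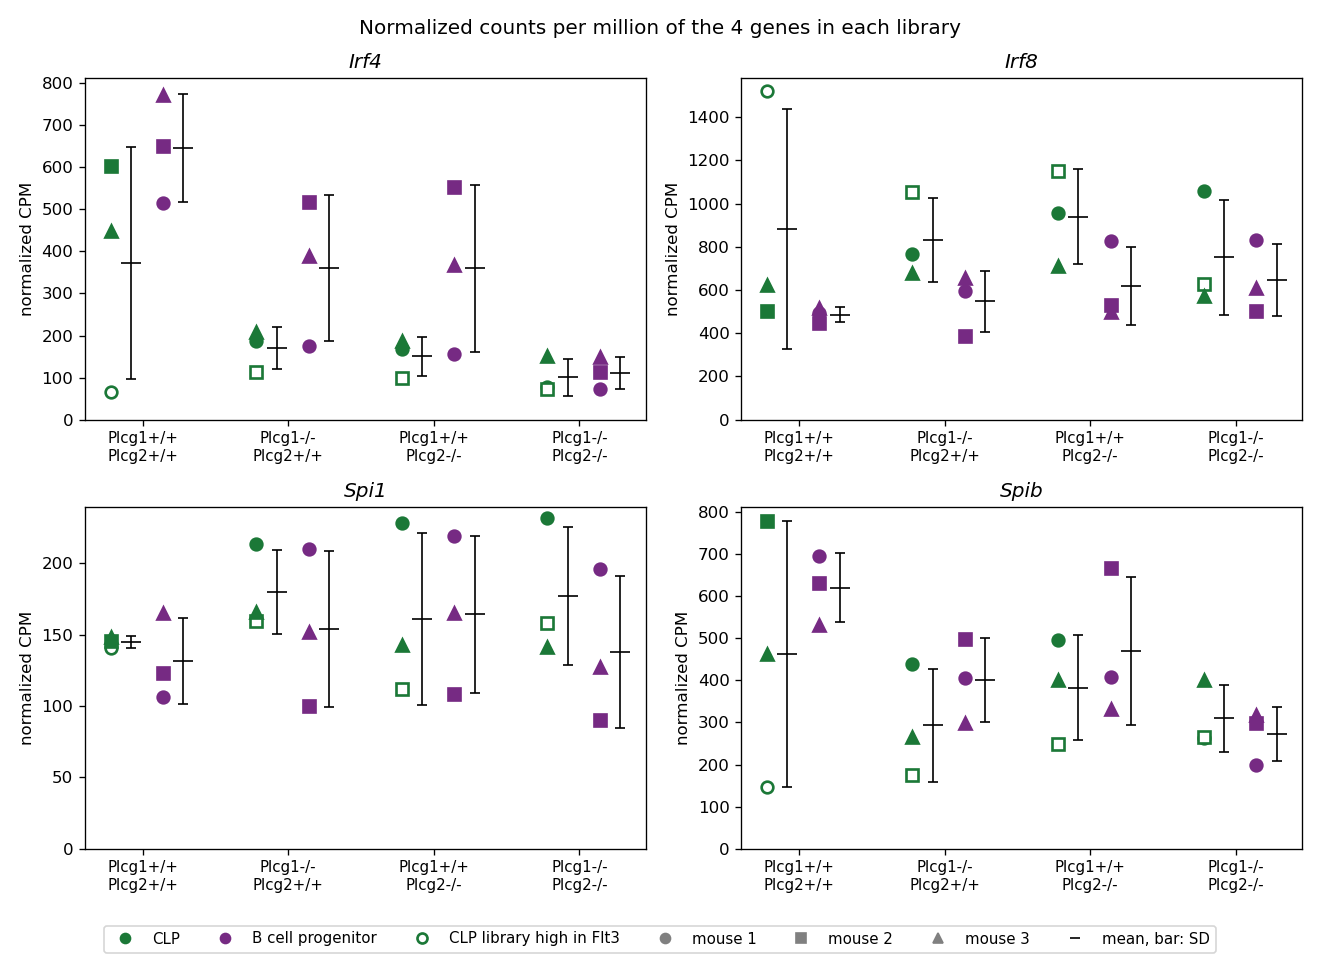
Normalized CPM of Irf4, Irf8, Spi1 and Spib (linear axes from 0) in each library by genotype, with CLPs in green and B cell progenitors in purple, symbols for mice 1 to 3 within a group, open symbols for the 4 CLP libraries high in Flt3, and bars for mean ± SD. Irf4 of B cell progenitors sits between 515 and 773 in wild-type and between 72.4 and 148 in double-deficient mice, with the single-deficient mice spread between 157 and 553.

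Loss of a single PLCγ left Irf4 between these levels. PLCγ1-deficient B cell progenitors had 175, 518 and 389 normalized CPM, and PLCγ2-deficient ones 157, 553 and 369. In both groups mouse 1, which was high in monocyte markers, was low and mouse 2 was the highest. The highest PLCγ1-deficient and PLCγ2-deficient values lay just above the lowest wild-type value. The log2 fold change from wild type was -0.84 ± 0.45 (SE) in either case, with adjusted p of 0.467 and 0.919 in edgeR. No member was called in these comparisons, whose shares of called genes were 0.06% and 0.0467%.

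The double-deficient B cell progenitors also lay below every single-deficient library in Irf4. Groups did not overlap for 16.7% of all genes against PLCγ1-deficient and 13.1% against PLCγ2-deficient cells. The log2 fold change of Irf4 was -1.69 ± 0.46 (SE) from either single-deficient genotype. Its edgeR adjusted p was 0.167 against PLCγ1-deficient and 0.311 against PLCγ2-deficient cells. Neither was called, where 0.213% and 0.153% of genes were. DESeq2 called both (adjusted p = 0.00996 and 0.0165), with 5.35% and 1.07% of genes called. Without the 3 libraries high in monocyte markers, edgeR called both as well, at log2 fold changes of -1.69 and -1.77 with adjusted p of 0.0259 and 0.0177, and 0.376% and 0.222% of genes were then called. Against wild type the same omission left 1.39% of genes called. The labels pair no mice across genotypes, but same-numbered double-deficient and PLCγ2-deficient B cell progenitors deviated together (lowest r 0.207). A replicate block was therefore fitted over all 12 B cell progenitor libraries. The log2 fold change between these genotypes was then -1.6 with an edgeR adjusted p of 0.0248, where 0.307% of genes were called. Same-numbered wild-type and PLCγ2-deficient libraries in that fit did not deviate together (mean r -0.213). It is thus not a test of known pairs. With the share of reads on no gene as a covariate, the values shrank to -0.77 against PLCγ1-deficient and -1.08 against PLCγ2-deficient cells (edgeR adjusted p = 0.631 and 0.601).

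In CLPs Irf4 was spread widely within the wild type. The wild-type values were 66.7, 602 and 448 normalized CPM, and the double-deficient values 77.0, 73.6 and 152. The groups overlapped through wild-type mouse 1, one of the CLP libraries high in Flt3, and the log2 fold change of -1.88 ± 0.62 (SE) was not called (edgeR adjusted p = 0.448, with 0.0921% of genes called). Without that library it was -2.40 with an adjusted p of 0.0355 and 0.27% of genes called. Without all 4 libraries high in Flt3, which leaves 2 mice per genotype, it was -2.21 with an adjusted p of 0.0291 and 0.168% of genes called. Within those 4 libraries there is 1 per genotype and no test, and Irf4 stood at 66.7 in wild-type, 114 in PLCγ1-deficient, 99.2 in PLCγ2-deficient and 73.6 CPM in double-deficient CLPs. In the 8 CLP libraries with Flt3 at the level of B cell progenitors, Irf4 stood at 602 and 448 in wild-type and at 77.0 and 152 CPM in double-deficient mice, whereas the double-deficient library high in Flt3 was not below its wild-type counterpart.

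The single-deficient CLPs had 188, 114 and 208 normalized CPM of Irf4 without PLCγ1 and 167, 99.2 and 187 without PLCγ2. All 6 values lay between wild-type mouse 1 and wild-type mice 2 and 3. The log2 fold changes from wild type were -1.13 ± 0.61 and -1.30 ± 0.61 (SE), and those of double-deficient from single-deficient CLPs were -0.75 ± 0.60 and -0.58 ± 0.60 (SE). No member was called in these 4 comparisons, in which 0.00658% (PLCγ1-deficient against wild type), 0% (PLCγ2-deficient against wild type, 0 genes in edgeR with 596 at an unadjusted p under 0.05, and 11 in DESeq2), 0.0263% and 0.0526% of genes were called. The effect of double deficiency on Irf4 was not shown to differ between the populations, since the difference of -0.65 ± 0.79 (SE) in log2 fold change had an edgeR adjusted p of 1. For that difference 0% of genes were called, with 235 genes at an unadjusted p under 0.05 and 0 calls by DESeq2.

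**Figure D2:**
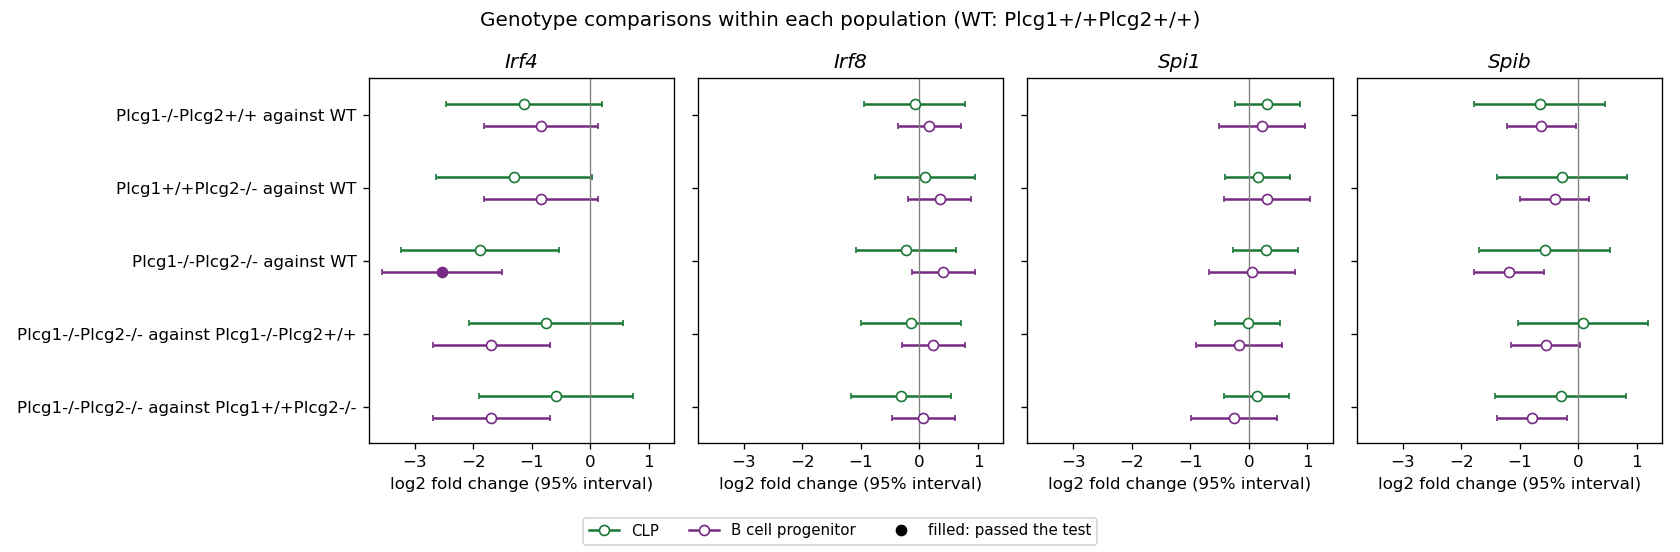
Log2 fold change with its 95% interval for each of the 4 genes (panels) in 5 genotype comparisons, with CLPs in green and B cell progenitors in purple, and filled symbols for changes that passed the test. Irf4 in double-deficient against wild-type B cell progenitors is the single filled symbol, at -2.53, and the Irf8 and Spi1 intervals all include 0.

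Spib was lower in the same comparison but did not pass the test in edgeR. In B cell progenitors it stood at 695, 631 and 533 normalized CPM in wild-type and at 200, 299 and 318 in double-deficient mice. These did not overlap, as for 19.7% of all genes. The log2 fold change of -1.18 ± 0.27 (SE, 95% interval -1.78 to -0.59) had an unadjusted p of 0.000966, rank 191 among 15001 genes, and an adjusted p of 0.0759 in edgeR, so it was not called. DESeq2 called it at an adjusted p of 0.00203. PLCγ1-deficient B cell progenitors (406, 498 and 298) lay below each wild-type mouse, in a comparison where 18.5% of all genes did not overlap. PLCγ2-deficient ones (407, 667 and 332) overlapped the wild type at mouse 2. The log2 fold changes of the 2 single-deficient genotypes, -0.63 ± 0.27 and -0.40 ± 0.27 (SE), had edgeR adjusted p of 0.467 and 0.919.

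Double-deficient cells had the lowest Spib of the 4 genotypes in B cell progenitors. Their log2 fold change was -0.55 ± 0.27 (SE) from PLCγ1-deficient cells, which they overlapped, and -0.79 ± 0.27 (SE) from PLCγ2-deficient cells, which they did not (as for 13.1% of all genes). Neither passed the test in edgeR (adjusted p = 0.334 and 0.37) or DESeq2 (0.258 and 0.153). In CLPs wild-type Spib ranged as widely as Irf4, at 147, 779 and 462 normalized CPM, with mouse 1 again the lowest. The deficient CLPs had 439, 175 and 265 without PLCγ1, 496, 249 and 402 without PLCγ2, and 262, 267 and 402 without both, all within the wild-type range. Their log2 fold changes from wild type lay between -0.66 and -0.27, with intervals that included 0.

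Irf8, whose mean per kilobase of exon was above that of its relative Irf4 in all 8 groups, did not fall with it. In B cell progenitors the wild type had 492, 448 and 517 normalized CPM, and the double-deficient mice had 829, 501 and 607. The value of 829 was from mouse 1, the library high in monocyte markers. The groups overlapped at double-deficient mouse 2, and the log2 fold change of 0.41 ± 0.25 (SE, 95% interval -0.13 to 0.95) did not pass the test (edgeR adjusted p = 0.525). The single-deficient mice, at 596, 389 and 657 without PLCγ1 and 826, 530 and 497 without PLCγ2, overlapped the wild type too. In CLPs wild-type mouse 1 had the most Irf8 of all 24 libraries, 1519 normalized CPM against 505 and 624 in mice 2 and 3. The deficient CLPs ranged from 680 to 1051 without PLCγ1, from 712 to 1151 without PLCγ2 and from 573 to 1058 without both. Their log2 fold changes from wild type of -0.08, 0.09 and -0.23 had 95% intervals reaching from -1.09 to 0.95, so changes of up to about that size would not have been seen.

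Spi1 had no called change between genotypes. In B cell progenitors it stood at 107, 123 and 165 normalized CPM in wild-type and 196, 90.2 and 128 in double-deficient mice, with full overlap. The log2 fold change was 0.06 ± 0.34 (SE, edgeR adjusted p = 0.958). Its 95% interval ran from -0.67 to 0.79, so changes of up to about that size would not have been seen. PLCγ1-deficient B cell progenitors had 210, 100 and 152 and PLCγ2-deficient ones 219, 109 and 165. In each deficient genotype mouse 1, the library high in monocyte and neutrophil markers, had the most Spi1, and the part of those markers in its level was not tested. Without these 3 libraries the log2 fold changes from wild type were -0.16, -0.03 and -0.29 for PLCγ1-deficient, PLCγ2-deficient and double-deficient cells, against 0.23, 0.31 and 0.06 with them.

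In CLPs wild-type Spi1 was 140, 145 and 148 normalized CPM, the narrowest spread of the 4 genes in any group (SD 4.05). The deficient CLPs had 213, 160 and 166 without PLCγ1, 228, 112 and 143 without PLCγ2, and 232, 158 and 141 without both. All 3 PLCγ1-deficient values lay above the wild type, in a comparison where 6.34% of all genes did not overlap. The log2 fold change of 0.31 ± 0.25 (SE) did not pass the test (edgeR adjusted p = 1). Mouse 1 was again the highest in each deficient genotype. Of the 40 genotype comparisons of a member within a population, 7 had groups that did not overlap, or 17.5%, where 12.8% of all genes over the same 10 comparisons did not, and 1 was called.

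**Figure D3:**
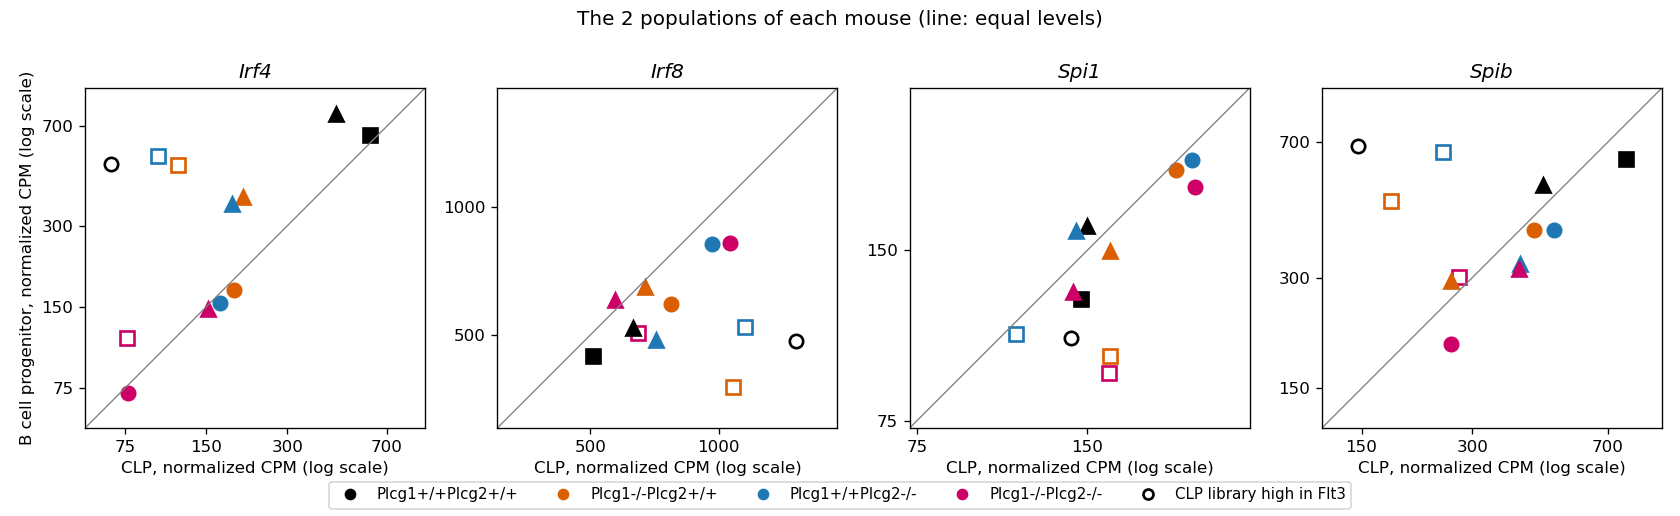
Normalized CPM of each gene in B cell progenitors (vertical) against CLPs (horizontal) of the same mouse, both on log scales, coloured by genotype, with symbols for mice 1 to 3, open symbols for the 4 mice whose CLP library was high in Flt3, and a line of equal levels. Filled points lie at log2 differences of -0.13 to 0.95 for Irf4 and -0.55 to 0.07 for Irf8, and open points at 0.59 to 2.93 and -1.65 to -0.36, so the ranges of filled and open points overlap.

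Both populations came from the same mice and were compared in 1 fit of all 24 libraries, which had no term for the mouse. Averaged over the 4 genotypes, Irf4 was higher in B cell progenitors than in CLPs (log2 fold change 0.80 ± 0.28 SE, edgeR adjusted p = 0.0375) and Irf8 lower (-0.60 ± 0.17 SE, adjusted p = 0.013). Spi1 (-0.20 ± 0.16 SE, adjusted p = 0.35) and Spib (0.22 ± 0.21 SE, adjusted p = 0.447) were not called. So 2 of 4 members were called, where 14.4% of 17212 genes were. Irf4 lost its call when any of 16 of the 24 libraries was left out, and Irf8 when wild-type CLP mouse 1 was. Within 1 genotype no member was called, with shares of called genes of 3.5% in wild-type, 3.78% in PLCγ1-deficient, 3.21% in PLCγ2-deficient and 3.24% in double-deficient mice.

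The size of these differences depended on the 4 mice whose CLP library was high in Flt3. In the other 8 mice, Irf4 was higher in B cell progenitors in 4 mice (log2 differences of 0.1, 0.78, 0.89 and 0.95) and lower in 4 (none below -0.13). Irf8 was lower in 7 of the 8 (-0.55 to 0.07), and Spib was higher in 2 and lower in 6. Without the 4 mice Irf4 was at 0.35 (edgeR adjusted p = 0.382), Irf8 at -0.25 (adjusted p = 0.331) and Spib at -0.19 on the log2 scale, and no member was called, where 4.83% of genes were. In the 4 mice Irf4 and Spib were higher and Irf8 and Spi1 lower in the B cell progenitors of each. Wild-type mouse 1 had the largest differences in Irf4, Irf8 and Spib, with 66.6 CPM of Irf4 in CLPs and 507 in B cell progenitors, scaled jointly, and 1517 and 484 CPM of Irf8.

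The order of the 8 groups differed between the genes. On the joint scale mean Irf4 was highest in wild-type B cell progenitors (645 normalized CPM, range 507 to 777, n = 3) and lowest in double-deficient CLPs (102, range 76.2 to 152) and double-deficient B cell progenitors (111, range 71.8 to 147). Irf8 ran the other way by population, with all 4 CLP groups (761 to 943) above all 4 B cell progenitor groups (484 to 644) and wild-type B cell progenitors last. Mean Spib was highest in wild-type B cell progenitors (617, range 536 to 685) and lowest in double-deficient ones (272, range 198 to 316). Spi1 means lay between 131 and 181. For all 4 genes every pair of neighbours in this order overlapped in its libraries.

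Between genes, levels were compared per kilobase of exon. In wild-type B cell progenitors Spib was highest (221 ± 27.0 CPM per kb, SD, n = 3), followed by Irf8 (141 ± 10.7), Irf4 (135 ± 28.4) and Spi1 (64.5 ± 15.4). In double-deficient B cell progenitors Irf8 led (187 ± 47.2), then Spib (97.5 ± 23.1) and Spi1 (67.5 ± 25.7), and Irf4 was last (23.4 ± 7.93). The levels of Irf4 and Irf8 thus overlapped in wild-type cells and were apart in each double-deficient mouse.

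**Figure D4:**
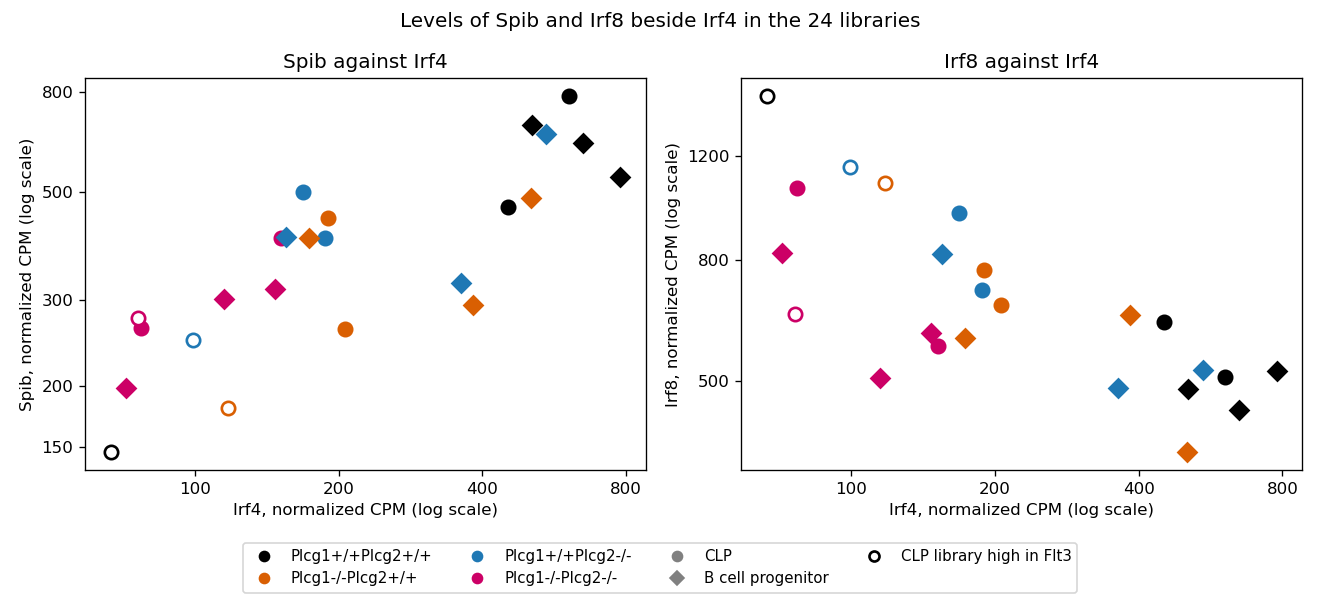
Spib (left) and Irf8 (right) against Irf4 in the 24 libraries, in normalized CPM on log axes, coloured by genotype, with circles for CLPs, diamonds for B cell progenitors and open symbols for the CLP libraries high in Flt3. Spib rises with Irf4 (r = 0.81 over CLPs and 0.80 over B cell progenitors), and Irf8 falls with it (r = -0.70 and -0.67).

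Across the 12 libraries of a population, which share genotypes and mice, log2 CPM of Irf4 and Spib had Pearson's r of 0.81 in CLPs and 0.80 in B cell progenitors. Irf8 ran against both, with r of -0.70 and -0.67 for Irf4 and -0.74 and -0.60 for Spib. Spi1 followed Irf8 in B cell progenitors (0.72) but not in CLPs (0.06). The 3 B cell progenitor libraries high in monocyte markers had the most Spi1 (196 to 219 normalized CPM). Irf8 was highest in the double-deficient and PLCγ2-deficient ones of them (829 and 826). Their part in this correlation was not tested. Among 14173 genes, those whose pattern was most like Irf4 in both populations were Tubb2b (r of 0.958 in CLPs and 0.975 in B cell progenitors), Cd24a, which encodes the surface protein used to stage early B cells, Sbk1, Lgr5 and Bach2, a repressor active in B cells. For Spib they were Siglecg, an inhibitory receptor of B cells, Neil1, Nuak1, Cpm and Rrm2b. For Irf8 they included Cyth4, Ttc13, Ccnd1, which encodes cyclin D1, and Tex2. For Spi1 they were M6pr, Myo1g, G6pdx, Gstm1 and Apoe, the last a product of macrophages. These are descriptions over 12 libraries each.

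Genes known to depend on the 4 factors were examined in double-deficient against wild-type B cell progenitors. Of 7 pre-B cell genes of IRF4 and IRF8, Ikzf3, which encodes Aiolos, fell from 339, 192 and 225 to 67.4, 38.0 and 75.1 normalized CPM (log2 fold change -2.08 ± 0.38 SE, edgeR adjusted p = 0.0233). The groups did not overlap, as for 19.7% of all genes. The call of Ikzf3 was lost without wild-type mouse 1 or 3 or any double-deficient mouse (adjusted p up to 0.103). The other 6 were not called. Ikzf1, which encodes Ikaros, was at -0.91 ± 0.20 (SE, adjusted p = 0.0655), and the surrogate light chain genes Igll1 and Vpreb1 were at 1.03 ± 0.53 and 1.22 ± 0.53 (SE, adjusted p = 0.461 and 0.379). The median of the 7 was 0.51, against -0.02 over all genes. It pools genes that IRF4 and IRF8 limit with genes that they favour, so it gives no direction for the list as a whole.

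None of 10 B cell signalling genes of PU.1 and Spi-B was called, and their median was 0.04. The kinase gene Syk had the lowest value among them (log2 fold change -1.18 ± 0.29 SE, edgeR adjusted p = 0.107), with 1185, 1421 and 1198 normalized CPM in wild-type and 429, 682 and 570 in double-deficient mice. DESeq2 called 1 of the 10. Of 10 receptor and myeloid genes of PU.1, 9 had positive values with a median of 0.69, and Tlr4, which encodes the receptor for lipopolysaccharide, was called (1.40 ± 0.28 SE, adjusted p = 0.0378). It stood at 15, 9.26 and 10.3 normalized CPM in wild-type and 22.2, 36.2 and 32.0 in double-deficient mice. The groups did not overlap, as for 19.7% of all genes. The call of Tlr4 was lost when wild-type mouse 1, 2 or 3, double-deficient mouse 2 or 3, or mouse 3 of either single-deficient genotype was left out (adjusted p up to 0.211). Without the 3 B cell progenitor libraries high in monocyte markers, the 10 receptor and myeloid genes had 8 positive and 2 negative values. Their median was then 0.24.

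Relatives of the 4 factors were not called in that comparison. Of 7 other IRF genes 4 had positive and 3 negative values (median 0.20), and 12 other Ets genes were split 6 and 6 (median -0.10), from Ets2 at -1.91 ± 0.51 to Erg at 1.505 ± 0.43 (SE, edgeR adjusted p = 0.136 and 0.167). DESeq2 called 0 IRF and 2 Ets genes. Of 10 partner and antagonist genes 8 could be tested and none was called (median 0.66). At an unadjusted p under 0.05 there were 1 IRF, 5 Ets and 1 partner gene, where 12.3% of all genes were. In CLPs of the same genotypes no gene of these lists was called in either direction. In B cell progenitors without the 3 libraries high in monocyte markers, 9 partner and antagonist genes could be tested. They had 6 positive and 3 negative values, with a median of 0.19.

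**Figure D5:**
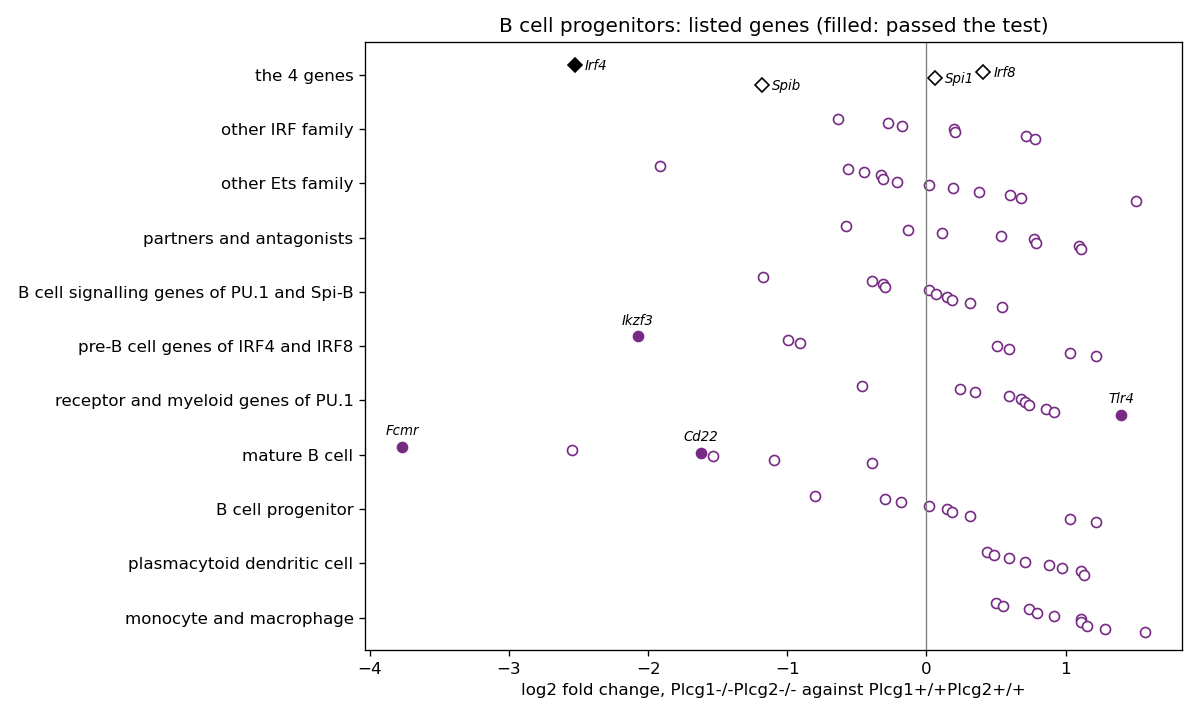
Log2 fold change in double-deficient against wild-type B cell progenitors of the 4 genes (diamonds), 6 lists of related genes and 4 lists of markers (circles), 1 line per list, filled where the change passed the test. Irf4 (-2.53), Ikzf3 (-2.08), Cd22 (-1.62) and Fcmr (-3.77) are filled on the lower side and Tlr4 (1.40) on the higher side, and the monocyte and plasmacytoid dendritic cell markers all lie right of 0 unfilled.

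Marker lists were read beside the level of Irf4. In double-deficient B cell progenitors all 6 mature B cell markers had negative values (median -1.58), and 2 were called, Cd22 (-1.62 ± 0.24 SE, edgeR adjusted p = 0.00747) and Fcmr (-3.77 ± 0.61 SE, adjusted p = 0.0133), both receptors of B cells. Cd22 was called with any library left out, and Fcmr lost its call without wild-type mouse 3 or double-deficient mouse 2 or 3 (adjusted p up to 0.0895). The 6 markers summed to 267 to 340 CPM in wild-type and 80.9 to 169 CPM in double-deficient mice. Of 5 plasma cell markers, 3 had positive and 2 negative values (median 0.51), and their sum ran from 288 to 627 CPM in wild-type and from 611 to 2408 CPM in double-deficient mice. Jchain alone ran from 131 to 417 and from 457 to 2123 CPM. The 2408 CPM was in mouse 1, high in monocyte markers, and PLCγ2-deficient mouse 1 had 2159 CPM. Sdc1 was the 1 plasma cell marker called. It fell (-1.44 ± 0.27 SE, edgeR adjusted p = 0.0261), a call lost without any wild-type mouse or double-deficient mouse 2 or 3 (adjusted p up to 0.14). None of the 9 B cell progenitor markers was called, with 6 positive and 3 negative values (median 0.15). No marker of lymphoid progenitors, conventional dendritic cells, T and NK cells, innate lymphoid cells or erythroid cells was called either, and the medians of the first 4 of these lists were 0.38, 0.44, 0.87 and 0.46. Only 2 of the 6 erythroid markers could be tested.

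All 8 plasmacytoid dendritic cell, 10 monocyte and macrophage and 8 neutrophil markers had positive values (medians 0.79, 1.01 and 1.45), and none was called. At an unadjusted p under 0.05 the counts were 3, 2 and 2, and DESeq2 called 1, 1 and 0, where over all genes the shares were 12.3% and 3.67%. Irf8, Spi1 and Spib are themselves expressed in several of these cells, and the part of such cells in the levels of the 4 genes was not tested. Without the 3 libraries high in monocyte markers Irf4 was at -2.32 in double-deficient against wild-type B cell progenitors (edgeR adjusted p = 0.00225) and Spib at -1.03 (adjusted p = 0.156). Ikzf3 was then at -2.19, Cd22 at -1.70, Fcmr at -4.03, Sdc1 at -1.62 and Tlr4 at 1.55, all called. The medians of the mature B cell, plasmacytoid dendritic cell, monocyte and neutrophil markers were -1.64, 0.56, 0.63 and 1.53. Of the 7 pre-B cell genes 3 were called, Ikzf3 among them, and of the 9 B cell progenitor markers 2, where 1.39% of all genes were. Igll1 and Vpreb1 belong to both lists, so these counts are not independent.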

How the data were processed

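Raw counts per gene were deposited by the authors, 1 table per library, made from reads aligned with STAR 2.5.0a to mm10 per the labels; the counting program was not given in the sources used here, and strand use is unknown. Depth limits precision, and a floor of 3 counts equals at most 2.03 CPM. Lines that name no gene were left out of library sizes. The counts were scaled by TMM, filtered with filterByExpr and tested with edgeR 4.0.16 (quasi-likelihood, limma 3.58.1, R 4.3.3), in 1 fit per population for genotypes and 1 fit of all 24 libraries for populations. DESeq2 1.42.0, which the authors also used, was an alternative. The scripts were tested on simulated data, and plots used matplotlib 3.10.9 in Python 3.11.15.

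The 4 genes and the lists were chosen with earlier results of these data known. Genes outside the 4 were named where called or set beside a member's result, and for likeness as the 5 genes with the highest lower value of the CLP and B cell progenitor correlations. The leading omissions (libraries high in Flt3, above 1.5 times every B cell progenitor library, or above 1200 summed CPM of monocyte markers) were added after seeing the data. B cell progenitors and CLPs with the same genotype and number came from the same mouse per the labels. Between genotypes, same-numbered libraries deviated together (every correlation above 0.1) for double-deficient against single-deficient CLPs and against PLCγ2-deficient B cell progenitors only (lowest r 0.37, 0.236 and 0.207). Some genes are not reported here.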

Additional observations from a re-analysis of the deposited data

How the results depend on the processing

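Outside the omission of single libraries, 470 of 504 alternative log2 fold changes of the 4 genes kept their direction and side of the threshold. Of the rest, 10 came past it, 3 dropped from it and 21 changed sign, none of the latter called. The 504 include the main values judged by adjusted p alone, whose direction could not change. The causes were not tested beyond the settings named. For double-deficient against wild-type B cell progenitors, 2 of the 4 genes (Irf4 and Spib) were called with a replicate block, with both groups compared alone and by DESeq2, and 0 to 2 with 1 library left out. Spib then had edgeR adjusted p of 0.0174 with the block and 0.0313 with the groups alone, and 0.0247 without PLCγ2-deficient mouse 2. The numbers did not pair these samples, and the block raised the genes called from 134 to 550. The other counts were 144 with RLE size factors, 151 without a filter, 213 with the share of reads on no gene as covariate, 238 with the groups alone, 243 without the libraries high in monocyte markers, 444 by DESeq2 and 50 to 184 with 1 library left out. Against either single-deficient genotype, 1 gene (Irf4) was called with the replicate block, without the libraries high in monocyte markers and by DESeq2. No label pairs samples across genotypes, and the numbers did not pair the PLCγ1-deficient ones. In CLPs, 1 gene (Irf4) was called in double-deficient against wild type without the 4 libraries high in Flt3, and 0 to 1 with 1 library left out. Between populations, 1 gene was called without a filter (Irf4 lost, adjusted p = 0.0524), 0 without the 4 mice and 1 to 2 with 1 library left out. Irf4 lost that call for 16 of 24 libraries and Irf8 for wild-type CLP mouse 1. The replicate block, which was the mouse in the fit of both populations, changed no other call.

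Values that changed sign, all uncalled, were as follows on the log2 scale. With the replicate block Irf8 was 0.027 in PLCγ1-deficient minus wild-type CLPs, Spi1 -0.034 in double-deficient minus wild-type B cell progenitors and 0.0063 between PLCγ2-deficient populations. With the covariate Spi1 was -0.046 in double-deficient minus wild-type B cell progenitors, and Irf8 -0.18 and -0.19 in double-deficient minus PLCγ1-deficient and PLCγ2-deficient ones. Without the CLP libraries high in Flt3, Irf8 was 0.33 in PLCγ1-deficient minus wild-type, 0.52 in double-deficient minus wild-type and 0.19 in double-deficient minus PLCγ1-deficient CLPs, where Spib was -0.064. Without the 4 mice, B cell progenitors minus CLPs gave Spib -0.11 in wild-type, -0.0084 in PLCγ1-deficient, -0.30 in PLCγ2-deficient mice and -0.19 over all, Spi1 0.028 in PLCγ2-deficient and Irf4 -0.043 in double-deficient mice. Without the libraries high in monocyte markers, Spi1 was -0.19 in PLCγ2-deficient minus wild-type CLPs and -0.16, -0.032 and -0.29 in PLCγ1-deficient, PLCγ2-deficient and double-deficient minus wild-type B cell progenitors, and Spib 0.045 in double-deficient minus PLCγ2-deficient CLPs.

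With 1 library left out, these uncalled values crossed 0. In CLPs minus wild type, Irf8 ran from -0.35 to 0.54 (PLCγ1-deficient), -0.19 to 0.71 (PLCγ2-deficient) and -0.56 to 0.40 (double-deficient), Spi1 from -0.20 to 0.35 (PLCγ2-deficient), and Spib from -0.74 to 0.33 (PLCγ2-deficient) and -1.02 to 0.056 (double-deficient). In double-deficient minus PLCγ1-deficient CLPs, Irf8 ran from -0.47 to 0.066, Spi1 from -0.26 to 0.12 and Spib from -0.17 to 0.50, and minus PLCγ2-deficient CLPs Spi1 ran from -0.087 to 0.49. In B cell progenitors minus wild type, Spi1 ran from -0.12 to 0.46 (PLCγ1-deficient), -0.0012 to 0.54 (PLCγ2-deficient) and -0.27 to 0.29 (double-deficient). In double-deficient minus single-deficient B cell progenitors, Spi1 ran from -0.48 to 0.21 (PLCγ1) and -0.57 to 0.089 (PLCγ2), and Irf8 from -0.14 to 0.40 (PLCγ2). In B cell progenitors minus CLPs, Spi1 ran from -0.34 to 0.025 (wild-type) and -0.44 to 0.26 (PLCγ2-deficient), Spib from -0.14 to 0.41 (PLCγ2-deficient) and -0.31 to 0.035 (double-deficient), and in double-deficient mice Irf4 from -0.11 to 0.56 and Irf8 from -0.48 to 0.089. The difference of the Irf8 effect between populations ran from -0.027 to 0.97.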
